A study of Mus musculus with 2 samples.

Results

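Sox1, Sox2 and Sox3 make up the SoxB1 group of transcription factor genes. Chromatin accessibility around them was read from ATAC-seq, an assay that cuts and tags open DNA with the Tn5 transposase. The assay was performed on live cells of the mouse embryonic stem (ES) cell line Olig2-mKate2, sorted for the red fluorescent protein mKate2 that is made from the Olig2 locus. There was 1 group, with 2 replicate libraries. All cells were differentiated to spinal neural progenitors, received 100 nM retinoic acid (RA) and 100 nM SAG, which activates Sonic hedgehog signalling, up to day 5, and entered transposition at 50000 cells per reaction. As models of the motor neuron progenitor, cells sorted by this reporter also include newly formed motor neurons and some cells that also make NKX2.2, per the study. No label says whether the replicates came from separate cultures, so every p-value below measures the spread between these libraries only.

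An interval, a stretch of the genome in which peaks were called, was assigned to a SoxB1 gene where the nearest start of a protein-coding gene (TSS) in the GENCODE annotation of mm10 was that of Sox1, Sox2 or Sox3. The rule used position and no measured value, and being nearest does not show that an interval acts on the gene. It gave 119 of 119502 intervals, of which 24 belonged to Sox1, 77 to Sox2 and 18 to Sox3.

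SoxB1 proteins bind DNA through an HMG box and hold neural progenitors in a dividing, undifferentiated state. They are broadly shared by progenitors along the dorsoventral axis of the spinal cord and are switched off as neurons form. Sox1 is one of the earliest genes of the neural plate, Sox2 is used by pluripotent cells as well as by neural progenitors, and Sox3 is the X-linked member. All 3 genes consist of a single exon. SOX proteins often bind beside POU factors, and in neural cells the POU3 factors are known partners of SOX2.

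The sequences on which the description turns are printed here from the GRCm38 (mm10) reference of RefSeq, to show what kind of DNA carries the strongest signal of each gene. Each promoter stretch ends just before the more upstream of the GENCODE and RefSeq starts, which is the GENCODE start for Sox1 (chr8:12395045-12395294, plus strand; RefSeq lies 224 bases further downstream) and the RefSeq start for Sox2 (chr3:34649745-34649994, plus strand). The GENCODE start of Sox2, used for all distances, lies 410 bases further downstream. Capitals mark a CCAAT box (CCAAT), a GC box (GGGCGG), the known TATA box (TATAAA), a SOX core (ACAAAG or ACAATG) or the POU octamer (ATGCAAAT) on either strand.
Sox1 promoter: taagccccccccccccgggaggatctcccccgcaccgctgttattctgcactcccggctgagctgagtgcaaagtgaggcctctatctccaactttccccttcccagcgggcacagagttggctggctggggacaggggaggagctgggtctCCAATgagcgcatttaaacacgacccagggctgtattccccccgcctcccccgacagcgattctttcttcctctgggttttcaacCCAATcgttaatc
Sox2 promoter: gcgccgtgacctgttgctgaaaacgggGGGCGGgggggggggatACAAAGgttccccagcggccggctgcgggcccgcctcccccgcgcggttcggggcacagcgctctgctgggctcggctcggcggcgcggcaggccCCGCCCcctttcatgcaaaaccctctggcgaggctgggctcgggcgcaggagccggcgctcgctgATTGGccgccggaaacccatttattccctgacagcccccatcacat

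The central 300 bases of the densest distal interval of each gene follow, together with the interval at the known Sox2 regulatory region 2 (SRR2), a short enhancer downstream of Sox2. They lie at chr8:12430429-12430728 (plus strand), chr3:35088574-35088873 (plus strand), chrX:60799977-60800276 (minus strand) and chr3:34653832-34654131 (plus strand). Capitals mark a SOX core, a homeodomain core (TAATTA), an E-box (CAGATG or CATATG or CAGCTG), the POU octamer, a composite of a SOX core and ATGC with at most 4 bases between them, or one of the GLI (GGGTGGTC), FOX (GTAAACA), TCF (ATCAAAG) and CTCF cores and the retinoic acid response element DR5.
Sox1 densest distal interval: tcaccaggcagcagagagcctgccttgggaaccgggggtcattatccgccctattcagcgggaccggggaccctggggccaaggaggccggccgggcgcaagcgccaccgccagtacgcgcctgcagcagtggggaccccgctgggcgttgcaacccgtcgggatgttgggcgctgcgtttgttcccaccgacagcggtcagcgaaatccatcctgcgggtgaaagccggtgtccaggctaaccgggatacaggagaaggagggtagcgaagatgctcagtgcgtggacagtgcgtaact
Sox2 densest distal interval: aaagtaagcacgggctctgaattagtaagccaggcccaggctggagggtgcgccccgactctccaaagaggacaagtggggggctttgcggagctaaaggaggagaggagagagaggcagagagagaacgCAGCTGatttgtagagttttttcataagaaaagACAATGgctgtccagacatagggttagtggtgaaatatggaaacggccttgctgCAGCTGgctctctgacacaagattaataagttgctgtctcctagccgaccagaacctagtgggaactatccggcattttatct
Sox3 densest distal interval: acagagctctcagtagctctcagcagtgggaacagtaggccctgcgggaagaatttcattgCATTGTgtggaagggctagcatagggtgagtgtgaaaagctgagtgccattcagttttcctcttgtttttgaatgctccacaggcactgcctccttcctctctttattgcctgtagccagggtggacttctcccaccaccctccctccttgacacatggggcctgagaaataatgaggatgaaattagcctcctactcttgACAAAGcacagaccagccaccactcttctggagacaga
Sox2 SRR2 window interval: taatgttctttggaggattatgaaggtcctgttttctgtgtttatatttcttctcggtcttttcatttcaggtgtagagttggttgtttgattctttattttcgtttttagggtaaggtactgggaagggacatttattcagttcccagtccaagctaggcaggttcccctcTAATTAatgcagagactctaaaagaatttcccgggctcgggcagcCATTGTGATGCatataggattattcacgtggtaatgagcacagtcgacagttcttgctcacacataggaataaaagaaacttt

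The library totals were 31876165 and 31672240 counts in intervals, and the median interval held 65 and 66 counts. Counts were divided by a size factor for each library (normalised counts), and by interval length where levels are compared (normalised counts per kb, here called density). The median density was 853 at intervals that overlapped a protein-coding TSS and 125 at the others, called distal. The cell type was checked against markers, where 61.5% of all protein-coding genes had a TSS interval. All 7 neural progenitor markers had one (Sox1, Sox2, Sox3, Pax6, Nes, Olig2 and Nkx6-1), with densities from 187 to 1498. Of these, Sox1, Sox2 and Sox3 are the genes described here, and Pax6 had the lowest density. Of other cell types, 4 of 5 motor neuron markers had a TSS interval (none for Chat, at most 1087, for Isl1), as had 3 of 4 neuromesodermal (none for Tbx6, at most 294), 2 of 4 pluripotent (none for Pou5f1 and Nanog, at most 237) and 3 of 5 fibroblast markers (none for Col1a1 and Pdgfra, at most 291). The highest density of each of these other cell types was above that of Pax6. This concerns the TSS interval only, and 94.5% of the Pax6 counts were distal. By the counts of all its intervals Pax6 stood at percentile 99.6 of protein-coding genes. The highest marker of the other cell types by this measure, Pdgfra, stood at 91.7. The part of other cell types in the SoxB1 values was not tested. Fewer cells with an open site and less opening per cell cannot be told apart in sorted bulk cells.

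Sox1 had the densest promoter of the 3 genes. Its TSS interval (chr8:12394909-12397486, 2578 bp, over the coding exon) held 3995 counts in replicate 1 and 3731 in replicate 2. The density was 1550 in replicate 1 (exact Poisson 95% interval 1503 to 1599) and 1447 in replicate 2 (1401 to 1494), and the mean was 1498 ± 73.3 (SD, n = 2). This stood at percentile 82.2 of the 13500 protein-coding genes with a TSS interval.

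The Sox2 promoter was of ordinary density. Its TSS interval (chr3:34647908-34651320, 3413 bp, over the coding exon) was the longest of the 3 and held 3002 and 2880 counts. The median TSS interval was 1229 bp, so the densities of Sox1, Sox2 and Sox3 were all averaged over a longer stretch than at most genes. The density was 880 in replicate 1 (849 to 912) and 843 in replicate 2 (813 to 875), with a mean of 862 ± 25.8 (SD, n = 2), at percentile 48.6.

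The Sox3 TSS interval (chrX:60892094-60894634, 2541 bp, over the coding exon, gene on the minus strand) held 1879 and 1806 counts. Its density was 740 in replicate 1 (707 to 774) and 710 in replicate 2 (678 to 744), with a mean of 725 ± 20.7 (SD, n = 2), at percentile 39.0. The order was Sox1, Sox2, Sox3 in both libraries, and the values of no 2 genes overlapped. The ratio was 1.74 ± 0.033 for Sox1 over Sox2, 2.07 ± 0.042 for Sox1 over Sox3 and 1.19 ± 0.0016 for Sox2 over Sox3 (SD, n = 2). With 2 pairs, a paired exact permutation test cannot give a p below 0.5, so no p is given for the order.

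The order changed when each gene was set against its own chromosome. The median TSS density was 1206 on chromosome 8, which carries Sox1, and 510 on the X chromosome, which carries Sox3, against 873 on chromosome 3, which carries Sox2, and 798 to 980 on the autosomes other than chromosome 8. Divided by the median of its own chromosome, the Sox1 promoter was at 1.24, Sox2 at 0.99 and Sox3 at 1.42. Sox3 thus moved from the lowest to the highest place, and the ratios became 0.873 for Sox1 over Sox3 and 0.694 for Sox2 over Sox3. The median density of distal intervals was 127 on chromosome 8, 133 on the X chromosome and 124 on chromosome 3. Copy number of these chromosomes in the line was not tested. The distal medians cannot settle it, since weak sites were kept only where a peak was called.

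**Figure D1:**
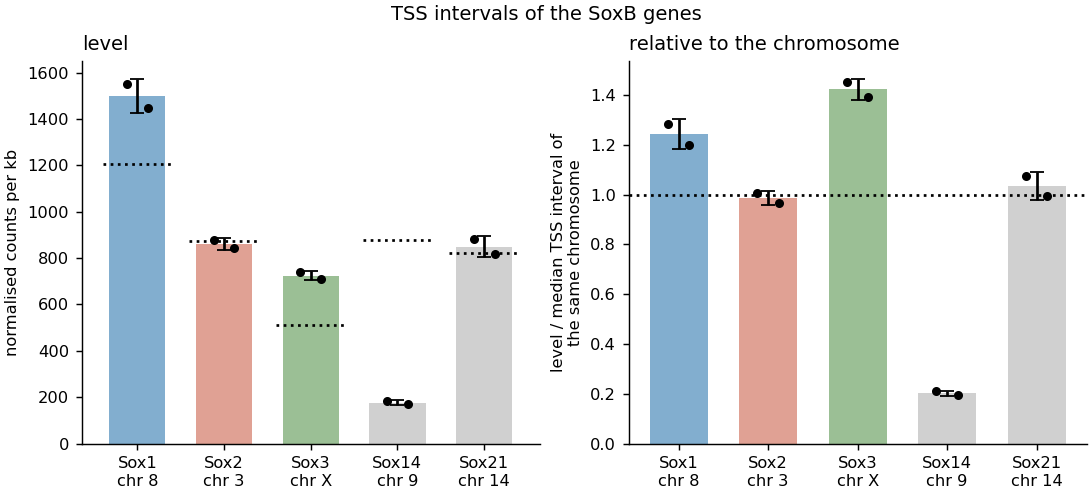
Density of the TSS intervals of the 3 SoxB1 genes and of the SoxB2 genes Sox14 and Sox21, as normalised counts per kb (left) and divided by the median TSS interval of the same chromosome (right). Bars are means, error bars the SD of the 2 replicates, points the replicates and dotted lines the chromosome medians; Sox1 is the highest on the left at 1498 and Sox3 the highest on the right at 1.42.

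The SoxB2 genes, whose products act against the SoxB1 factors during neuronal differentiation, give a measure from the same family. The Sox14 promoter had a density of 177 ± 9.78 (SD, n = 2), below each SoxB1 promoter in both libraries. The Sox21 promoter had 850 ± 46.2 (SD, n = 2), close to that of Sox2.

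The letters at the Sox1 and Sox2 promoters were GC-rich. In the 300 bases from 250 before to 50 after the RefSeq start, most of which lie outside the printed stretch for Sox1 (chr8:12395269-12395568), GC content was 70.7% at Sox1 and 66.3% at Sox2, against a median of 52.7% over 32851 promoters of that length. A CCAAT box was found in both, and in 37.4% of all promoters. The GC box was also found in both (35.7% of all), for Sox1 outside the printed stretch, and the TATA box in neither (13.6%). The Sox2 window held the SOX core ACAAAG (18.7% of all), seen in the printed stretch, and the Sox1 window held the POU octamer (1.74% of all), outside the printed stretch.

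Away from the promoters, the 3 loci differed in how their signal was spread. Distal intervals held 73.2% and 74.1% of the Sox1 counts in replicates 1 and 2, 85.6% and 86.2% of the Sox2 counts, and 49.6% and 53.2% of the Sox3 counts. The means were 73.6% ± 0.638, 85.9% ± 0.421 and 51.4% ± 2.51 (SD, n = 2), and the genes did not overlap. Over all genes with a TSS interval the median was 21.7%. The number of intervals was also high, at percentiles 96.2, 99.9 and 93.3 of protein-coding genes for Sox1, Sox2 and Sox3, where the median gene had 3. The stretch of genome nearest to the TSS was long too, with 147, 836 and 296 kb against a median of 47.7 kb. Per 100 kb of the stretch nearest to each TSS, Sox1 had 16.3 intervals, Sox2 9.21 and Sox3 6.07, at percentiles 89.5, 68.1 and 50.2.

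**Figure D2:**
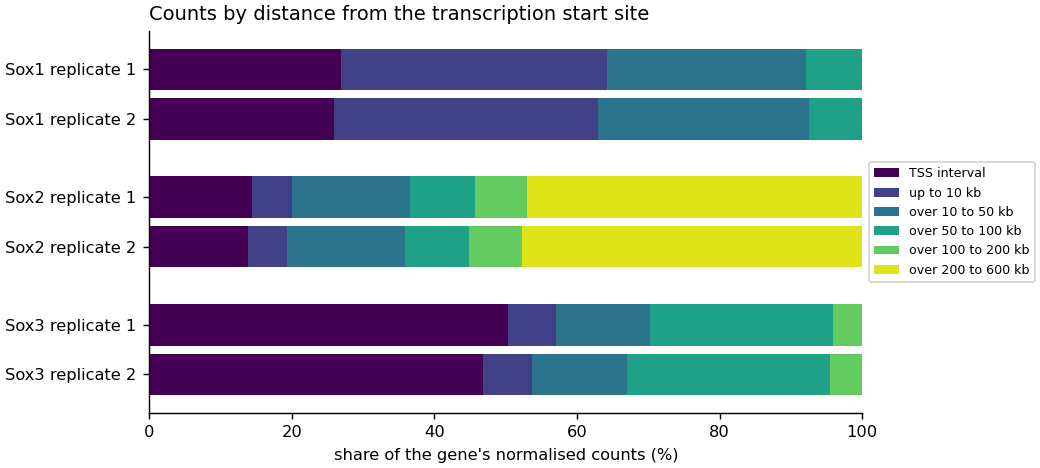
Share of each gene's normalised counts (%) by distance of the interval from the TSS, for each replicate. All Sox1 counts lie within 100 kb, beyond which the rule could assign no interval to Sox1. Of the Sox2 counts, 47.0% to 47.7% lie over 200 kb away, and the Sox3 TSS interval holds 46.8% to 50.4%.

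The Sox1 intervals lay close to the gene, as the assignment rule required. All 24 lay between 55.3 kb upstream and 86.5 kb downstream of the TSS. The neighbouring genes start 116 kb upstream (A230072I06Rik) and 178 kb downstream (Spaca7), and the rule reaches only midway to each. The stretch nearest to the Sox1 TSS was thus 147 kb long, and the intervals spanned most of it. The TSS interval held 26.4% ± 0.638 of the counts and the 4 distal intervals within 10 kb of it 37.2% ± 0.232 (SD, n = 2 each). The noncoding transcript Sox1ot, which is read on the same strand and overlaps Sox1 (from 9.52 kb upstream to 41.5 kb downstream), contained 8 of the distal intervals, and these held 61.0% ± 1.09 of the Sox1 counts (SD, n = 2). Their median density was 883, against 98.8 for the 15 distal intervals outside Sox1ot. All 4 distal intervals within 10 kb of the TSS were among the 8, so the transcript and the distance cannot be told apart here.

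The densest Sox1 interval was distal, 34.4 kb downstream (chr8:12429720-12431436, an exon of Sox1ot). It held 2823 and 2981 counts, with a density of 1690 ± 64.1 (SD, n = 2). Next came an interval 5.41 kb downstream in an intron of Sox1ot (chr8:12400702-12402171), with 2347 and 2339 counts and a density of 1594 ± 4.77 (SD, n = 2). The mean density of both was above that of the Sox1 promoter, although the longer TSS interval held more counts than either. In replicate 1 their densities were 1645 and 1597, against 1550 at the promoter, and in replicate 2 they were 1735 and 1591, against 1447.

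The third interval, 3.33 kb upstream (chr8:12391115-12391961), had 1271 and 1233 counts and a density of 1478 ± 32.6 (SD, n = 2), which overlapped the promoter values. All 3 stood between percentiles 99.2 and 99.5 of distal intervals. The printed centre of the densest Sox1 interval held none of the motifs searched, which says only that these letters are not in this window. At the other end, the Sox1 interval with the fewest counts, 54.0 kb upstream, had 13 and 20, and the lowest density was 43.0 ± 1.51 (SD, n = 2), 47.1 kb upstream.

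Sox2 was the most spread of the 3 loci. Its intervals ran from 279 kb upstream to 504 kb downstream, and the neighbouring genes start 569 kb upstream (Dnajc19) and 1104 kb downstream (Atp11b). Of its 76 distal intervals, 50 lay over 100 kb from the TSS, as against 0 of 23 for Sox1 and 3 of 17 for Sox3. The rule allowed no Sox1 interval over 100 kb away, and the stretch nearest to the TSS was 836 kb for Sox2 and 296 kb for Sox3. These counts therefore follow the spacing of genes at least in part. In replicate 1, 47.0% of the Sox2 counts came from over 200 kb away, and in replicate 2 47.7%. Without the intervals over 100 kb away, the distal share of Sox2 was 68.8% rather than 85.9%, below that of Sox1.

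The densest of all SoxB1 intervals lay 438 kb downstream of Sox2, in intergenic DNA (chr3:35088236-35089211, 976 bp). It held 2380 counts in replicate 1 and 2308 in replicate 2. Its density was 2402 ± 53.6 (SD, n = 2), above 99.9% of distal intervals and above the Sox2 promoter in both libraries. This holds per kb only, since the longer TSS interval held more normalised counts (mean 2941 against 2344). The nearest other protein-coding start, that of Atp11b, was 665 kb away. The 2 next densest distal intervals were its neighbours, 434 kb downstream (693 and 647 counts, density 1332 ± 65.4) and 454 kb downstream (620 and 627 counts, density 936 ± 6.89; SD, n = 2 each). Both were denser than the Sox2 promoter in both libraries, though with far fewer counts. The Poisson intervals of the second overlapped those of the promoter.

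These intervals lay among 12 that were over 400 kb downstream, a cut made after their values were seen. Of the 12, 10 averaged more than 100 normalised counts. The same limit was passed by 48.7% of the distal Sox2 intervals and by 32.4% of all distal intervals. The cut takes in the densest distal Sox2 intervals, so the high values of this part are partly built in. The 12 held 28.1% ± 0.083 of the Sox2 counts (SD, n = 2). The Sox2 TSS interval held 14.1% ± 0.421. In the printed centre of the densest interval there was 1 SOX core of the ACAATG form and there were 2 E-boxes of the CAGCTG form.

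Upstream of the TSS there were 27 intervals with 29.1% ± 0.255 of the Sox2 counts, and downstream 49 with 56.8% ± 0.166 (SD, n = 2). All 27 upstream ones lay in Sox2ot, a long noncoding transcript that contains Sox2 and runs on the same strand. Sox2ot reaches from 546 kb upstream to 32.2 kb downstream of the Sox2 TSS. The rule reaches only midway to Dnajc19, which starts 569 kb upstream, so every upstream interval had to lie in Sox2ot. The 34 distal Sox2 intervals within it, on both sides of the TSS, held 46.9% ± 0.025 of the counts (SD, n = 2), with a median density of 285. The 42 outside it held 39.0% ± 0.396 (SD, n = 2), with a median of 137. These 42 all lay downstream, so the transcript and the position cannot be told apart. The densest within Sox2ot, 208 kb upstream (chr3:34441137-34442048), had 842 and 808 counts and a density of 905 ± 26.9 (SD, n = 2). It was named after its values were seen. In replicate 1 it was at 924 against 880 at the promoter, and in replicate 2 at 886 against 843, differences that the Poisson intervals did not separate.

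Known regulatory regions of Sox2 were looked up by position, and their densities differed widely. The window of the Sox2 regulatory region 1 (SRR1), from 5 to 1.5 kb upstream, was touched by the TSS interval alone. In the SRR2 window, 3 to 5.5 kb downstream, there was 1 interval, 3.37 kb from the TSS (chr3:34653772-34654190), with 316 and 318 counts and a density of 757 ± 2.94 (SD, n = 2), above 95.8% of distal intervals. In its printed centre there was a SOX core close to the letters ATGC, the composite of SOX and POU letters described above. That composite was found in 3 of 119 SoxB1 intervals (2.52%) and in 1.01% of all intervals. Counted per kb of whole intervals, it was 1.14 times as frequent as in all intervals, rather than 2.50 times in the central 300 bases.

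The last of these regions is the Sox2 control region, a cluster of enhancers about 100 kb downstream of Sox2 that drives the gene in ES cells. It held 2 intervals, 101 and 109.5 kb from the TSS. The first had 16 and 27 counts, with a density of 127 ± 46.0, and the second 26 and 19, with a density of 56.8 ± 12.5 (SD, n = 2 each). They stood at percentiles 50.8 and 12.5 of distal intervals, far below the interval in the SRR2 window in both libraries. Just outside the window, 99.7 kb downstream, an interval with 28 and 25 counts had a density of 162 ± 13.0 (SD, n = 2). It was named after its values were seen. The Sox2 interval with the fewest counts, 265 kb upstream, had 9 and 5, and the lowest density was 17.6 ± 1.46 (SD, n = 2), 19.4 kb upstream.

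Sox3 had the fewest intervals, and no distal interval above its promoter. The 18 intervals lay from 98.2 kb upstream to 149 kb downstream of the TSS. The share of its TSS interval was 50.4% in replicate 1 and 46.8% in replicate 2. The next largest share, 27.1% ± 1.99 (SD, n = 2), came from 6 intervals between 50 and 100 kb from the TSS.

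Of these, 2 neighbours in an intron of the noncoding gene Gm14661 were the densest. The interval 93.0 kb downstream (chrX:60799775-60800477) had 293 and 373 counts and a density of 474 ± 80.2, and the interval 94.5 kb downstream had 286 and 328 counts and a density of 473 ± 45.5 (SD, n = 2 each). The third, 3.08 kb downstream of the TSS, had 176 and 189 counts and a density of 466 ± 23.2 (SD, n = 2). These 3 values differed by less than the spread between replicates. The printed centre of the first held both SOX cores. The weakest by counts and by density, 46.8 kb upstream, had 5 counts in each library.

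**Figure D3:**
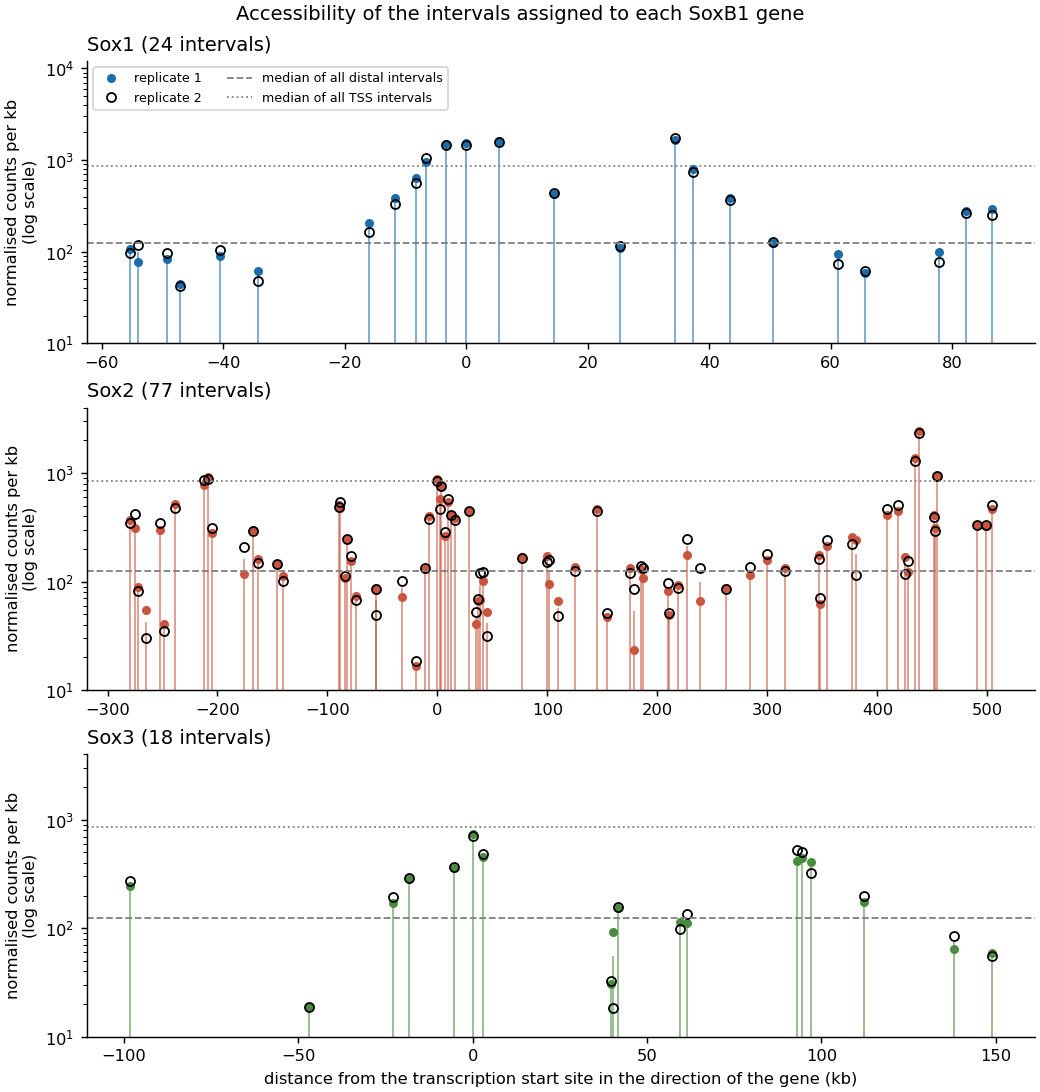
Density (normalised counts per kb, log scale) of each interval against its distance from the TSS in the direction of the gene (kb), in a panel for each of Sox1, Sox2 and Sox3. Filled points are replicate 1, open points replicate 2, and horizontal lines the medians of all distal (125) and all TSS intervals (853). The Sox1 signal is highest within 10 kb and at 34.4 kb, the Sox2 signal at 438 kb, and the Sox3 signal at the TSS.

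Intervals of the SoxB1 genes were more often strong than intervals at large. A mean normalised count over 100, the base mean limit that the study used, was reached by 60 of 119 (50.4%, exact binomial 95% interval 41.1 to 59.7%, counting error only), against 38.8% of all 119502 intervals. By gene these were 14 of 24 for Sox1, 38 of 77 for Sox2 and 8 of 18 for Sox3. Of the distal intervals alone, 57 of 116 were strong (49.1%), against 32.4% of all distal intervals. The limit takes no account of length, and the distal SoxB1 intervals were longer than distal intervals at large (median 585.5 against 472 bp). A density over the median of all intervals was found for 58.0% of the 119, against 50% of all. Neighbouring intervals are not independent, and no test was made of the difference. At the low end, 3 members had a mean under 10, of which 1 was at Sox2 and 2 at Sox3.

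Among related gene lists, 41.9% of the 229 intervals of the SoxC and SoxD genes and 40.9% of the 88 intervals of the SoxE genes were strong. SoxC and SoxD genes act in later neural differentiation and glia, and SoxE genes in neural crest and glia. The share was 55.8% for the 77 intervals of the POU3 genes, which encode partners of SOX2, and 45.0% for the 20 intervals of the SoxB2 genes. It was also above that of the SoxB1 genes for SOX genes of other lineages (15 of 20 intervals, 75.0%). The same held for neuromesodermal (61.1%), ventral patterning (51.8%) and motor neuron genes (51.0%). It was lower for neural progenitor (45.3%), fibroblast (39.0%) and pluripotent genes (36.8%). All 4 POU3 genes had a TSS interval, with densities from 503 to 959. A TSS interval with a mean normalised count over 100 was present at 13 of 14 neural progenitor genes, at 6 of 8 ventral patterning genes and at 5 of 5 SOX genes of other lineages, against 58.6% of all protein-coding genes.

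By annotation, the 116 distal SoxB1 intervals comprised 59 in intergenic DNA, 42 in introns and 15 on exons of noncoding genes, with 0 on an exon of a protein-coding gene. Since the 3 genes have no intron, the intronic ones lay in noncoding transcripts. The start of a noncoding transcript was overlapped by 6, of which 1 was at Sox1 and 5 at Sox2. The Sox1 one was the start of Sox1ot, 8.24 kb upstream, with 1808 and 1606 counts and a density of 603 ± 50.8 (SD, n = 2), named after its values were seen. The median TSS interval was exceeded in density by 8 of the 116 distal intervals, 4 at Sox1 and 4 at Sox2, and by 3.37% of all distal intervals.

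SOX cores were common in the centres of these intervals. Either ACAAAG or ACAATG, on either strand, was found in the central 300 bases of 70 of 119 (58.8%), against 44.9% of all intervals, and in 59.5% of the distal ones, against 48.1%. The 3 genes were not alike: 9 of 24 Sox1 intervals held one (37.5%), against 49 of 77 for Sox2 (63.6%) and 12 of 18 for Sox3 (66.7%). The core ACAAAG accounted for most of this, with 54 intervals (45.4%, against 31.3% of all). The core ACAATG was in 30 (25.2%, against 21.3%). Base composition was close to that of all intervals, with a median GC content of 47.0% against 49.0%, and it was 52.0% at Sox1.

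Of the other letters searched, the POU octamer was in 5 of 119 (4.20%, against 2.08%), and all 5 were among the strong intervals. It was in 3 at Sox2 and 2 at Sox1. The homeodomain core was in 12 (10.1%, against 7.01%). The E-box CAGCTG, a form bound by proneural factors among others, was in 10 of 24 at Sox1 (41.7%), 15 of 77 at Sox2 (19.5%) and 1 of 18 at Sox3 (5.56%), against 22.2% of all. Per kb of whole intervals it was at 0.939 at Sox1, against 0.825 over all intervals. The GLI core was in 1 (0.84%, against 1.03%), and the CTCF core (2.80% of all) and the DR5 element (0.069% of all) in 0. The composite contains a SOX core, so these counts overlap. A match is a description of letters and not evidence of binding.

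The replicates were close at the SoxB1 intervals. In the exact binomial test of each interval's counts in the 2 libraries, with Benjamini-Hochberg adjustment over all intervals, 0 of 119 had an adjusted p under 0.01, and 0% of all 119502 did. An unadjusted p under 0.05 in this test was found for 12 of the 119 and for 9373 of all 119502 intervals. Both shares were above 0.05, the most that counting error alone would give, and that of the members was the larger. The libraries thus differed by somewhat more than counting error. The smallest adjusted p among the members was 0.223 in this exact binomial test, at the start of Sox1ot. With TMM factors of edgeR 6 of all intervals were called, none of them a member. With scaling by total counts, 0 were called.

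The largest differences were at weak intervals, and 3 members were over 2-fold apart on the log2 scale with a pseudocount of 1. These were at Sox3, 40.2 kb downstream, with 15 and 3 counts, and at Sox2, 179 kb downstream with 8 and 29 counts (log2 ratio of replicate 2 to replicate 1 of 1.74) and 380.1 kb downstream with 59 and 28 counts (-1.05). They were named after their values were seen. Among strong members, the SD of the log2 ratio of replicate 2 to replicate 1 was 0.16, against 0.14 over all 46369 strong intervals. Among these strong intervals, the largest log2 ratio for Sox2 was 0.41, 275 kb upstream, with 203 and 271 counts. For Sox3 it was 0.35, at the densest distal interval named above. For Sox1 it was -0.38, 61.2 kb downstream, with 126 and 97 counts. Replicate 2 was the higher at these intervals of Sox2 and Sox3 and the lower at that of Sox1.

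**Figure D4:**
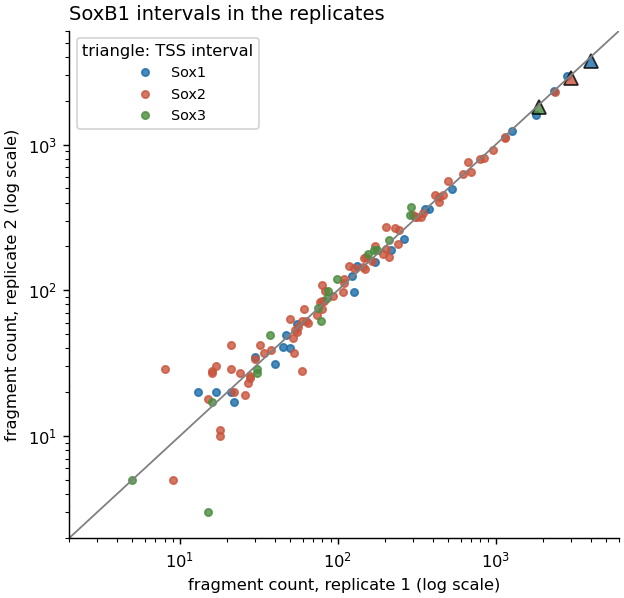
Fragment counts of the 119 SoxB1 intervals in replicate 1 and replicate 2, both on a log scale, coloured by gene, with the TSS intervals as triangles and a line of equal counts. Points lie along the line from 3995 and 3731 counts at the Sox1 TSS interval down to 5 and 5 counts, and they scatter most at low counts.

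The genes most like each member were sought among 51 genes of the lists, by the sum of the absolute differences in log2 promoter density and in log2 number of intervals over the 2 libraries. For Sox1 these were Nkx6-1 (0.41), a ventral progenitor factor, Isl1 (0.58), a motor neuron factor, and Hes1 (0.76), a Notch target. For Sox2 they were Sox9 (0.43), Sox4 (0.52) and the cadherin gene Cdh2 (0.62). For Sox3 they were Nkx6-2 (0.32), Sox13 (0.41) and Rfx4 (0.44). Nkx6-1, the nearest to Sox1, had a promoter density of 1452 ± 27.3 and 31 intervals. Sox9, the nearest to Sox2, had 655 ± 6.52 and 79 intervals. Nkx6-2, the nearest to Sox3, had 656 ± 28.6 and 16 intervals (SD, n = 2 each).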

How the data were processed

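Raw counts of fragments in consensus intervals were deposited by the authors for 2 libraries of live-cell ATAC-seq in 1 group. Per the study's methods, reads were processed with nf-core/atacseq 1.2.0 on mm10, with a MACS false discovery rate of 0.00001 and peaks present in 2 replicates. Per the file header, featureCounts 2.0.1 counted read pairs in every interval overlapped by at least 0.2 of the fragment, so a fragment could count more than once. The interval set came from 5 libraries. Columns of 3 libraries that match no sample of the series were left out, although those libraries helped to define the intervals, and weak sites were kept only where a peak was called.

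Size factors came from DESeq2 1.42.0. With 1 group, no contrast between conditions was fitted. Replicates were compared by an exact binomial test (two-sided) on the counts in both libraries, given their size factors, and p-values were adjusted (Benjamini-Hochberg) over all 119502 intervals, and the script was tested on simulated data. The log2 ratio used a pseudocount of 1. The TSS was the start of the protein-coding gene record (GENCODE vM21, GRCm38), distance ran to the nearest interval edge, and motifs were sought on both strands. Alternatives used edgeR 4.0.16, and other steps Python 3.11.15, numpy 2.4.6, pandas 2.3.3, scipy 1.17.1 and pysam 0.24.0. Fragments carried no molecular identifiers, so intervals cover counting error only.

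Named intervals were, for each gene, the TSS interval, the 3 densest distal intervals and the largest replicate difference (each above the limit of 100 normalised counts), the weakest interval, and the 3 Sox2 windows. Others are marked. The genes, lists and rules were chosen with earlier results of these data known.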

Additional observations from a re-analysis of the deposited data

How the results depend on the processing

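Of 96 alternative values, 81 stayed on their side or within the spread between replicates, 13 moved and 2 reversed. Some of the 81 could not have changed. Size factors cancel in the promoter ratios and the distal shares, so TMM and total counts gave identical values there. Counting intervals within 1 kb of the TSS as promoters also gave identical values. Relative to the median TSS interval of the same chromosome, the promoter ratio reversed for Sox1 over Sox3 (0.873) and for Sox2 over Sox3 (0.694), and was 1.26 for Sox1 over Sox2. With counts per interval in place of density, Sox1 over Sox2 was 1.31 and Sox2 over Sox3 1.60. Taking the nearest of all annotated genes left 4 intervals to the SoxB1 genes (1 at Sox1, 1 at Sox2 and 2 at Sox3), since noncoding genes start within these loci. Within 100 kb of the TSS there were 66 intervals, 27 of them at Sox2, and the distal share of Sox2 was 68.8%. The strong share was 68.1% at a limit of 50 (58.0% of all intervals) and 31.9% at a limit of 200 (25.0% of all). For distal intervals within 100 kb of the TSS, an alternative chosen after seeing the data together with that of distal intervals at any distance, it was 50.8% against 34.0%. The POU octamer was 2.02 times as frequent as in all intervals, and 4.72 times among strong intervals, a value that rests on 5 intervals. The SOX and POU composite (3 intervals) was at 2.50 times, 1.14 times per kb of whole intervals and 4.04 times among strong intervals. Leaving out each replicate in turn gave promoter densities of 1447 to 1550 for Sox1, 843 to 880 for Sox2 and 710 to 740 for Sox3, and distal shares of 73.2 to 74.1%, 85.6 to 86.2% and 49.6 to 53.2%. No paired analysis was possible because the labels give 1 group. Depth limited the weakest members, where 5 counts in each library gave a Poisson interval for density of 6.06 to 43.6 in replicate 1, and with 2 libraries no difference between genes can reach significance in a permutation test.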
